A study of Caenorhabditis elegans with 8 samples.

Results

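The genes described here are 36 DNA repair genes of Caenorhabditis elegans, listed by symbol and grouped into 5 pathways: 14 of recombination and crosslink repair, 4 of mismatch repair, 11 of excision repair and strand-break sealing, 4 of end joining and 3 of translesion synthesis. They were found by sequence name among the 46244 gene identifiers of the deposited tables, and all 36 had a row and passed the expression filter. The rule for membership used symbols and no threshold on any value. The worms were whole animals of the strain that the labels name for the cuticle collagen gene col-121, picked as late L4 larvae and kept for 24 hours either with DMSO alone, at 0.1%, or with the insect repellent DEET dissolved in DMSO, labelled 0.1 M, without a statement of whether this is the stock or the final concentration. Every group carries that strain background and the solvent, each sample pooled 1000 worms, and there were 4 DMSO and 4 DEET samples. The labels number the samples from 1 to 4 within each treatment and call the number a batch, so that each batch holds 1 DMSO and 1 DEET sample. No source used here says what the batch shared, so it is called a batch without naming the step.

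DNA repair restores broken, mismatched or chemically altered DNA. Recombination copies the missing sequence from an intact sister or homologous chromosome, mismatch repair removes copying errors, excision repair cuts out damaged bases or stretches of strand, end joining reseals broken ends directly, and translesion polymerases copy past damage that blocks the replication machinery. In an adult hermaphrodite the somatic cells no longer divide, while germ cells replicate their DNA, break it deliberately in meiosis and stock the oocyte with maternal mRNA. Recombination proteins are best known in this animal for their work in the germline.

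The libraries held 44437681 to 50295321 counts, and the 36 genes took 0.266% to 0.348% of them. A single member had between 738 and 13586 counts in a library. The share of ribosomal RNA was 3.91% to 8.32% in batches 1 to 3, and 10.9% and 12.1% in the DMSO and DEET libraries of batch 4. Chi-square per gene between libraries of a group was at least 14.2, so all 8 entered as separate samples. In whole worms, fewer germ cells and less RNA per germ cell cannot be told apart.

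All 5 pathways were transcribed at moderate levels in every library. Mean levels over the 8 libraries ran from 7.18 TPM (a transcript abundance that the authors' quantifier had already divided by transcript length) for csb-1 to 92.7 TPM for lig-1, with a median of 44.2 TPM, and 35 of the 36 lay between 10 and 100 TPM. Among the 15496 genes tested, csb-1 stood at the 43.6th percentile of mean TPM and lig-1 at the 87.9th. Levels repeated closely in batches 1 to 3. Over those 6 libraries the SD was 0.957% of the mean for rad-50 and 9.01% for rev-3, the lowest and highest of the 36.

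**Figure D1:**
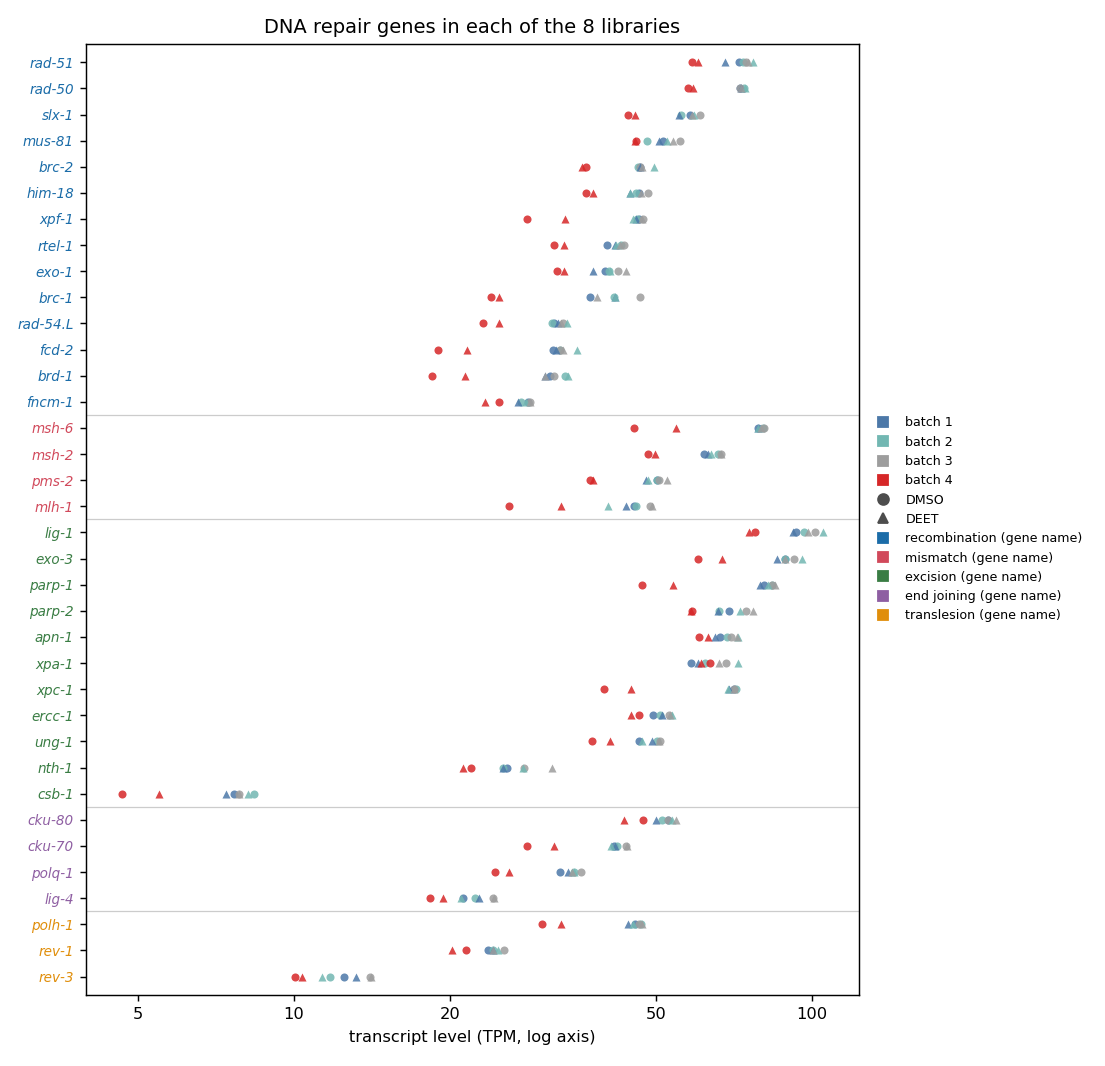
Transcript level in TPM (log axis) of each of the 36 repair genes in the 8 libraries. Circles are DMSO and triangles DEET, colour gives the batch, and gene names are coloured by pathway. The red symbols of batch 4 lie to the left of all others for 35 genes, the exception being xpa-1.

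Among the recombination genes, the strand-exchange recombinase gene rad-51 (chromosome IV, 10281634 to 10284244 on the minus strand of build WBcel235, as for all coordinates here) had the highest mean level. It stood at 72.3, 73.7, 74.8 and 58.9 TPM in the DMSO libraries of batches 1 to 4, and at 68.0, 77.2, 75.5 and 60.2 TPM in the DEET libraries of the same batches. Both batch 4 libraries were lowest, and the DMSO and DEET values overlapped. The gene rad-50, which encodes a subunit of the complex that holds and trims broken ends, had nearly the same mean level of 69.7 TPM, and brc-2, whose protein loads RAD-51 onto DNA, had 44.4 TPM. The BRCA1 partner gene brd-1 (chromosome III, 6885207 to 6889504, minus strand) lies 11063 bases from brc-2. Its level was 31.2, 33.4, 31.8 and 18.5 TPM in DMSO and 30.5, 33.9, 30.6 and 21.4 TPM in DEET. Its partner brc-1, the BRCA1 ortholog, stood at 37.3, 41.5, 46.7 and 24.0 TPM in DMSO and 41.8, 41.7, 38.5 and 24.9 TPM in DEET. For both partners the batch 4 libraries were lowest and the treatments overlapped.

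The nucleases and helicases that resolve recombination intermediates covered a similar range. The mean was 54.8 TPM for slx-1 and 50.5 TPM for mus-81, both structure-specific nucleases, 43.9 TPM for him-18, the scaffold to which such nucleases bind, 38.8 TPM for the resection exonuclease gene exo-1 and 39.8 TPM for the helicase gene rtel-1, which takes apart recombination intermediates. The nuclease gene xpf-1 (chromosome II, 11696171 to 11705371, plus strand) stood at 46.4, 45.9, 47.3 and 28.2 TPM in DMSO and 45.8, 45.1, 47.0 and 33.4 TPM in DEET. In batches 1 to 3 its 6 values lay within 45.1 to 47.3 TPM, and the pair from batch 4 lay far below them. The crosslink repair gene fcd-2 (chromosome IV, 15025710 to 15037036, plus strand), ortholog of FANCD2, stood at 31.7, 32.7, 32.7 and 19.01 TPM in DMSO and 32.1, 35.2, 33.2 and 21.6 TPM in DEET. For fcd-2 the DEET library exceeded the DMSO library in each of the 4 batches, the sole member with all 4 ratios above 0 or all below it. The translocase gene fncm-1 had a mean of 27.1 TPM and rad-54.L, whose protein remodels RAD-51 filaments, 30.4 TPM.

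Mean levels of the 4 mismatch repair genes lay between 41.5 and 72.2 TPM. The recognition subunits msh-2 and msh-6 had means of 60.9 and 72.2 TPM, and the MutL subunits mlh-1 and pms-2, which act after recognition, had 41.5 and 46.9 TPM. The level of msh-6 (chromosome I, 3449326 to 3462174, plus strand) was 78.7, 80.5, 81.1 and 45.5 TPM in DMSO and 78.7, 78.8, 79.9 and 54.6 TPM in DEET. Outside batch 4 its 6 libraries were nearly level, and within batch 4 the DEET library was the higher. The same held within batch 4 for mlh-1, at 45.3, 45.9, 48.7 and 26.1 TPM in DMSO and 43.8, 40.4, 49.1 and 32.9 TPM in DEET.

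The excision genes held both extremes of level. The replicative and repair ligase gene lig-1 (chromosome V, 10814106 to 10816718, plus strand), the highest of all 36, stood at 93.5, 96.8, 101.6 and 77.9 TPM in DMSO and 92.2, 105.4, 98.6 and 75.8 TPM in DEET. The lowest, csb-1, encodes the Cockayne syndrome B ortholog that starts repair in transcribed strands, and is the single member on chromosome X. Chromosome X held 2.78% of the members against 14% of all genes tested, whereas chromosomes I and III held 30.6% and 38.9% of the members against 16.4% and 15.4%. Damage recognition in the rest of the genome belongs to xpc-1 (chromosome IV, 1993089 to 2009027, plus strand), which stood at 70.7, 71.5, 70.9 and 39.7 TPM in DMSO and 69.2, 68.9, 70.9 and 44.9 TPM in DEET. The damage verification gene xpa-1 stood at 58.4, 62.2, 68.2 and 63.7 TPM in DMSO and 60.4, 72.3, 66.1 and 61.1 TPM in DEET, with batch 4 inside the range of the other batches. The nuclease subunit gene ercc-1 had a mean of 50.4 TPM.

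Besides lig-1, the genes of base excision and strand-break signalling had means from 25.9 TPM for nth-1 to 83.5 TPM for exo-3. The poly(ADP-ribose) polymerase gene parp-1 (chromosome I, 2907725 to 2925529, minus strand), whose product marks strand breaks, stood at 81.1, 83.9, 83.7 and 47.0 TPM in DMSO and 79.4, 82.5, 84.9 and 54.1 TPM in DEET. The DNA glycosylase gene nth-1 (chromosome III, 4291543 to 4294253, minus strand), for oxidised bases, stood at 25.8, 25.3, 27.9 and 21.98 TPM in DMSO and 25.4, 27.7, 31.5 and 21.2 TPM in DEET. Libraries of batch 4 were lowest for both genes, by a wide margin for parp-1 and a narrow one for nth-1. The second polymerase gene, parp-2, had a mean of 67.9 TPM, the uracil glycosylase gene ung-1 46.7 TPM, and the abasic-site endonuclease genes exo-3 and apn-1 83.5 and 67.2 TPM.

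Mean levels ran from 21.7 to 50.8 TPM among the end joining genes and from 12.2 to 42.3 TPM among the translesion genes. The Ku heterodimer, which caps broken ends, is encoded by cku-70 (chromosome III, 11154827 to 11168817, plus strand) and cku-80 (chromosome III, 4419848 to 4423375, plus strand). The first stood at 41.4, 42.2, 43.9 and 28.2 TPM in DMSO and 41.7, 40.9, 44.1 and 31.8 TPM in DEET, and the second at 52.7, 51.5, 52.8 and 47.2 TPM in DMSO and 50.1, 53.7, 54.8 and 43.4 TPM in DEET. For both genes the batch 4 libraries were lowest, more deeply so for cku-70. The end-joining ligase gene lig-4 had a mean of 21.7 TPM and the polymerase theta gene polq-1, which joins ends through short matching stretches, 32.1 TPM.

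Of the translesion polymerases, polh-1 (chromosome III, 1945058 to 1950269, minus strand) stood at 45.7, 46.9, 46.5 and 30.2 TPM in DMSO and 44.3, 45.1, 47.1 and 32.8 TPM in DEET. The polymerase zeta gene rev-3 (chromosome III, 5774679 to 5790650, minus strand) stood at 12.5, 11.7, 14.01 and 10.1 TPM in DMSO and 13.2, 11.3, 14.1 and 10.4 TPM in DEET, and rev-1 had a mean of 23.6 TPM. Libraries of the same batch resembled each other for rev-3, with batch 3 highest and batch 4 lowest in both treatments. The genes rev-3 and polq-1 lie head to tail on the same strand with 468 bases between them, and slx-1 and fncm-1 with 3901 bases between them on chromosome I.

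No repair gene passed the test for a change with DEET. In the edgeR quasi-likelihood test without the batch, 0 of the 36 genes passed an adjusted p of 0.05, where 0% of all 15496 genes did. With the batch as a block 0 of 36 passed, where 0.0839% of all genes did, which is 13 genes. The count of members at an unadjusted p under 0.05 was 0 in both fits, against 45 and 526 of all genes, and DESeq2 called 0 members with or without the block. The smallest unadjusted p with the block belonged to fcd-2 (log2 fold change 0.08 ± 0.04 SE, edgeR adjusted p = 1), whose 95% interval ran from -0.627% to 13%.

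The ratios within batches show how small the differences were. Of 144 ratios of DEET to DMSO, 36 genes in 4 batches, 116 lay within 0.1 of 0 on the log2 scale and 136 within 0.2, with a median size of 0.05. The lowest was -0.29 for brc-1 in batch 3 and the highest 0.34 for mlh-1 in batch 4. Blocked log2 fold changes ran from -0.03 for fncm-1 to 0.08 for fcd-2, with a median of 0.02 against 0.00 for all genes tested. The 95% intervals of the DEET change, from limma on log2 CPM with the batch as a block, spanned 0 for all 36 genes. Their outermost bounds were a decrease of 10.4% for brc-1 and an increase of 14.2% for mlh-1.

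**Figure D2:**
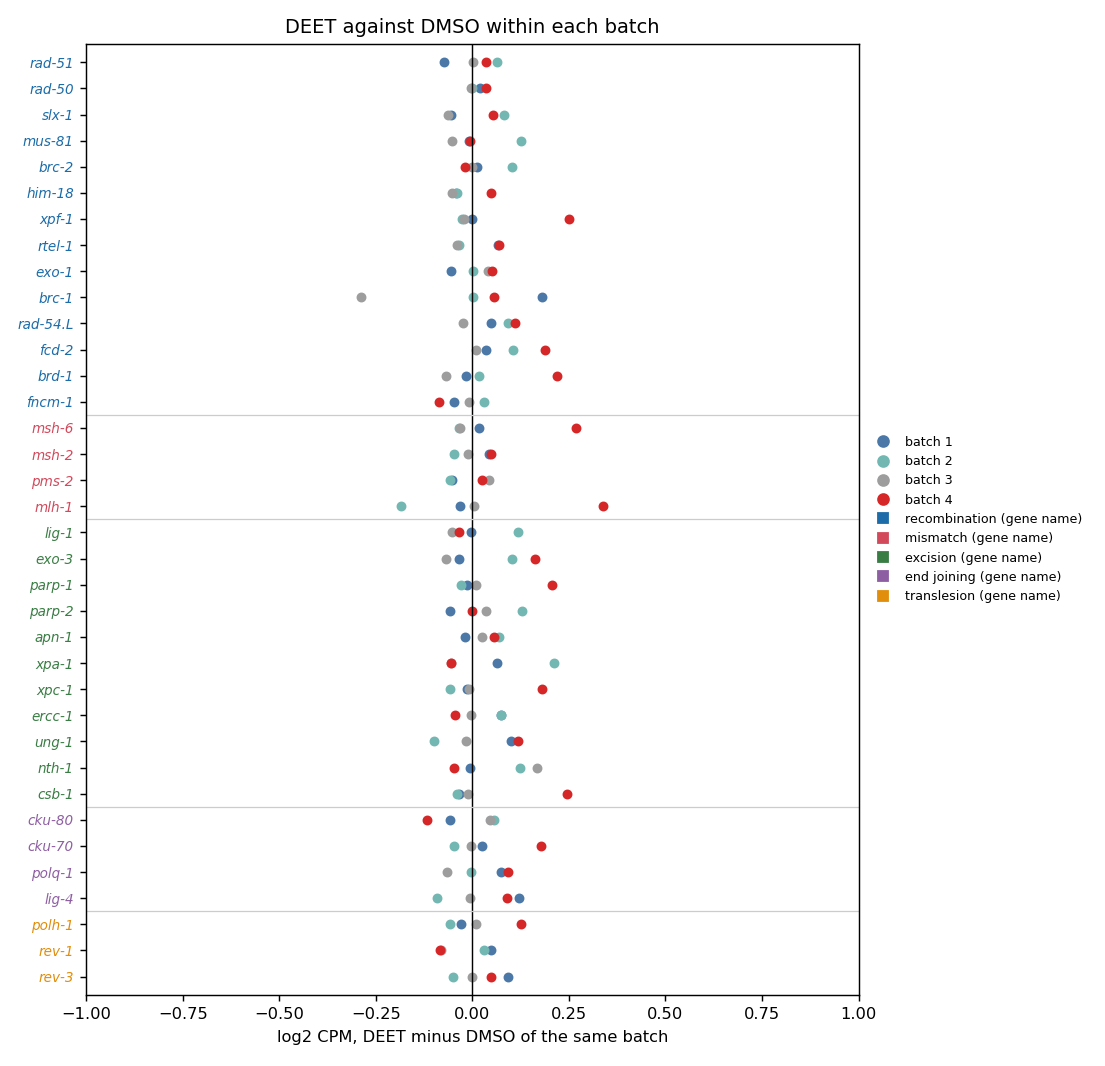
Difference in log2 CPM (log2 of counts scaled to library size) between the DEET and the DMSO library of the same batch for each repair gene, with batches in colour and gene names coloured by pathway. Of the 144 points, 136 lie within 0.2 of the line at 0, and 26 of the 36 points of batch 4 lie above 0, mlh-1 farthest at 0.34.

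The ratios of batch 4 lay above 0 more often than those of the other batches, a difference that was not tested. The median ratio over the 36 genes was -0.01, 0.00, -0.01 and 0.05 (log2) in batches 1 to 4, and 16, 19, 12 and 26 of the 36 ratios lay above 0. Among all 15496 genes tested, 7834, 6851, 8259 and 7530 ratios lay above 0 in the same batches. In batch 4 the 4 mismatch genes were all above 0, with a median of 0.16, and the excision, recombination, end joining and translesion medians were 0.06, 0.05, 0.09 and 0.05. Germline marker genes were above 0 for 19 of 19 in that batch, with a median of 0.22, against medians of -0.01, 0.00 and -0.01 in batches 1 to 3. The part of germ cell content in these ratios was not tested. Without the pair from batch 4, the median blocked log2 fold change of the repair genes was 0.00, 17 of 36 were below 0 and 0 passed (edgeR).

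Levels of the repair genes differed between batches. The edgeR test across the 4 batches, with the treatment in the model, called 35 of the 36 repair genes, where 64.9% of all genes tested passed. Against the mean of batches 1 to 3, batch 4 was lower in 35 repair genes and higher in 0, where 66.2% of all genes passed, 29.8% lower and 36.4% higher. This contrast was chosen with earlier results of these data known, in which batch 4 stood apart. Batch 4 held 59.4% of the mean TPM of the other batches for brc-1, the lowest share, and 96.6% for xpa-1, the highest, with a median of 77.3%. The sum over the 36 genes was 1743 to 1857 TPM in the 6 libraries of batches 1 to 3, and 1338 (DMSO) and 1397 TPM (DEET) in batch 4. The share of ribosomal RNA was also highest in both batch 4 libraries, and what this reflects was not tested. Leaving out the ribosomal RNA genes mainly changes the scaling and cannot answer that. With them left out, 35 repair genes were lower and 0 higher. Of all genes 10209 then passed in either direction, against 10255 in the main fit. Without the DMSO library of batch 4, the median log2 fold change was -0.37 for the repair genes and 0.05 for all genes tested. Without the DEET library of batch 4, these medians were -0.42 and 0.07. Each batch holds 2 libraries, so these tests compare 4 particular batches with each other.

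Among the genes with the smallest adjusted p, fcd-2 led, with a log2 fold change of -0.69 ± 0.05 (SE) in batch 4 (edgeR adjusted p = 1.4e-06). It was followed by xpc-1 at -0.72 ± 0.06 (adjusted p = 2.7e-06), parp-1 at -0.70 ± 0.06 (3.2e-06) and brd-1 at -0.67 ± 0.06 (4.3e-06). Then came polh-1 at -0.53 ± 0.05 (5.2e-06), msh-6 at -0.66 ± 0.07 (8.5e-06), xpf-1 at -0.58 ± 0.06 (1.1e-05) and cku-70 at -0.49 ± 0.05 (1.2e-05). These 8 genes come from all 5 pathways. The decrease of brc-1, -0.74 ± 0.08 (adjusted p = 1.3e-05), was the deepest of the 36 and is named here after its value was seen. The remaining genes named by rule had smaller decreases, of -0.29 ± 0.04 for rad-51, -0.34 ± 0.05 for lig-1, -0.32 ± 0.07 for nth-1, -0.31 ± 0.05 for rev-3 and -0.21 ± 0.05 for cku-80 (edgeR adjusted p = 0.00015, 0.00014, 0.0012, 0.00016 and 0.0029).

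**Figure D3:**
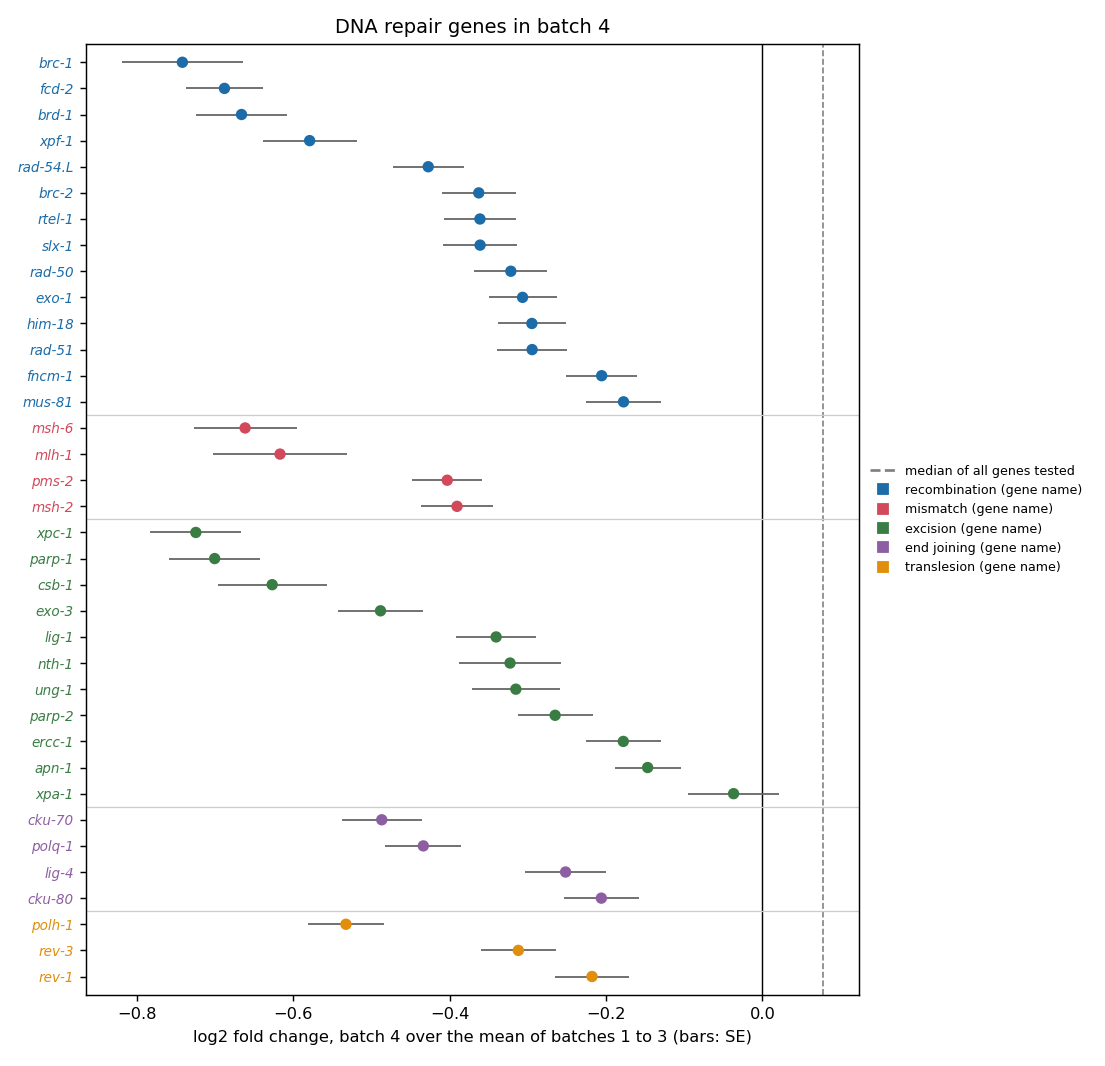
Log2 fold change of batch 4 over the mean of batches 1 to 3 for each repair gene, from edgeR, with bars of 1 SE and genes coloured by pathway; the dashed line marks the median of all genes tested, at 0.08. All 36 points lie left of 0, from -0.74 for brc-1 to -0.04 for xpa-1, which with library totals as the scaling is at 0.08.

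The decreases were uneven within pathways. The median log2 fold change in batch 4 was -0.36 for recombination, -0.51 for mismatch repair, -0.32 for excision, -0.34 for end joining and -0.31 for translesion genes, against 0.08 for all genes tested and -0.36 for the 36 members. Of the 36 log2 fold changes 10 were below -0.5 and 7 above -0.25. The gene xpa-1, at -0.04 ± 0.06 (adjusted p = 0.60), did not pass, and ercc-1, mus-81 and apn-1 were at -0.18, -0.18 and -0.15. Scaling bears on these sizes. With library totals in place of TMM factors (a scaling that sets aside genes of extreme ratio) the median of all genes moved from 0.08 to 0.195. That of the repair genes moved from -0.36 to -0.24. The distance between them was 0.44 either way, which is no check, because a scaling factor shifts all genes of a library alike. With library totals 29 of 36 were lower, where 10433 of all genes passed in either direction. The genes mus-81, fncm-1, ercc-1, apn-1, cku-80 and rev-1 no longer passed, while xpa-1 was at 0.08.

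For some products that work as pairs, the proportion of the transcripts lay outside the range of the other batches. The TPM ratio of msh-6 to msh-2 was 1.20 to 1.27 in the 6 libraries of batches 1 to 3, and 0.941 (DMSO) and 1.10 (DEET) in batch 4. For xpf-1 to ercc-1, a nuclease and its binding subunit, it was 0.839 to 0.939, against 0.607 and 0.745. For cku-70 to cku-80 it was 0.763 to 0.833, against 0.598 and 0.734. In each of these 3 pairs both batch 4 libraries lay below all 6 others, the DMSO library lowest. For parp-1 to parp-2, a pair of related polymerases, the ratio was 1.10 to 1.27 against 0.8 and 0.924. The ratio of brc-1 to brd-1 was 1.30 (DMSO) and 1.16 (DEET) in batch 4, beside 1.19 to 1.47 in the other batches, so that only its DEET library lay below their range. That of mlh-1 to pms-2 was 0.700 and 0.869 beside 0.836 to 0.960, with only the DMSO library below the range. Other members were paired in the same way. For xpc-1 to xpa-1 the ratio was 0.953 to 1.21 against 0.624 (DMSO) and 0.734 (DEET), and for slx-1 to him-18 1.22 to 1.33 against 1.20 and 1.21. For polq-1 to rev-3 it was 2.44 to 3.06 against 2.43 and 2.51, with only the DMSO library below the range. These ratios were not tested. Spliced length was greater for msh-6, xpf-1, parp-1, xpc-1 and polq-1 than for their partners. It was smaller for cku-70, slx-1, brc-1 and mlh-1 than for theirs. Exons of ercc-1 and slx-1 overlap those of another gene on the same strand. The part of length or overlap in the ratios was not tested.

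Transcript length moved with the batch 4 difference. Spliced lengths of the members, as the union of annotated exons, ran from 902 bases for xpa-1 to 5090 for polq-1. The 12 shortest, up to 1976 bases, had a median log2 fold change of -0.32 in batch 4, the next 12 also -0.32, and the 12 longest, from 2899 bases, -0.51. Across the 36 genes Spearman's rho between length and the log2 fold change was -0.41, and across 15477 tested genes with a length it was -0.29. Both describe genes of the same 8 libraries and are no tests, since genes are not independent replicates. Over 10 length bins of nearly equal size, the median of all genes was 0.32 among the shortest and -0.27 among the longest, and 7.3% and 56.9% of the genes in those bins were lower in batch 4. Compared with the median of their own bin, 35 of 36 repair genes were lower, with a median difference of -0.30. The bins were not matched for transcript level, and the members had a median percentile of 71.75 in mean TPM. Spearman's rho between mean TPM and the log2 fold change was -0.42 across the 15477 genes and 0.07 across the 36 members. The part of length, of level or of RNA quality in the result was not tested beyond this.

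**Figure D4:**
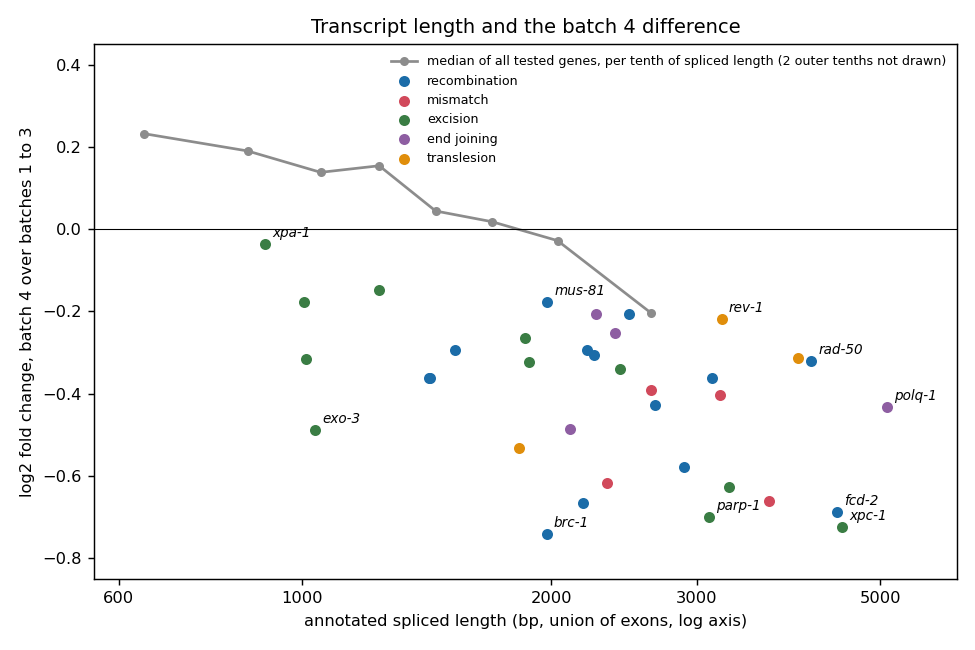
Log2 fold change of batch 4 over batches 1 to 3 against annotated spliced length (log axis) for the 36 repair genes, coloured by pathway, with the median of all tested genes per length bin in grey (the shortest and longest bins, at 0.32 and -0.27, are not drawn). All but 1 of the 36 genes lie below the median of their own bin, the exception being rev-1.

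Most markers of the germline list and all of the oocyte and eggshell list were lower in batch 4, as the repair genes were. Most sperm, muscle and neuron markers were higher. Of 19 germline markers, 15 were lower and 0 higher in batch 4, where 29.8% of all genes tested were lower and 36.4% higher. Their median log2 fold change was -0.59, and their summed level was 2679 (DMSO) and 3124 TPM (DEET) against 4572 to 4791 TPM in batches 1 to 3. Of 17 oocyte and eggshell genes 17 were lower, with a median of -0.76 and sums of 5530 and 6446 against 9818 to 10540 TPM. The repair genes, with a median of -0.36, lay between these lists and the median of all genes. Not all germline markers were lower. The synaptonemal complex genes syp-1 and syp-2 and the chromosome axis gene him-3, which act in meiotic prophase, had log2 fold changes of 0.05, -0.05 and -0.04 and did not pass.

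The counts of the following lists stand beside 36.4% higher and 29.8% lower among all genes tested. Sperm genes were higher in 17 of 20 and lower in 1, with a median of 1.01 and sums of 574 and 577 against 217 to 402 TPM. Body wall muscle genes were higher in 10 of 12 (median 0.53, sums of 3733 and 3347 against 2178 to 2795 TPM), and neuron genes in 9 of 12 (median 0.53, sums of 404 and 401 against 365 to 376 TPM). For 12 intestine genes 8 were higher and 3 lower, the latter being the yolk protein genes vit-2, vit-5 and vit-6, and the sums were 14850 (DMSO) and 12890 TPM (DEET) in batch 4, the second below the 14040 to 17840 TPM of the others. Of 12 hypodermis and cuticle genes 8 were higher and 2 lower, with sums of 2588 and 2534 inside 2397 to 2778 TPM. The 12 early embryo genes summed to 139 and 141 TPM against 141 to 180, 5 of them were tested, and 2 were lower and 1 higher. No marker of any list was at 0 in all libraries, and the part of tissue make-up in the decrease of the repair genes was not tested.

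**Figure D5:**
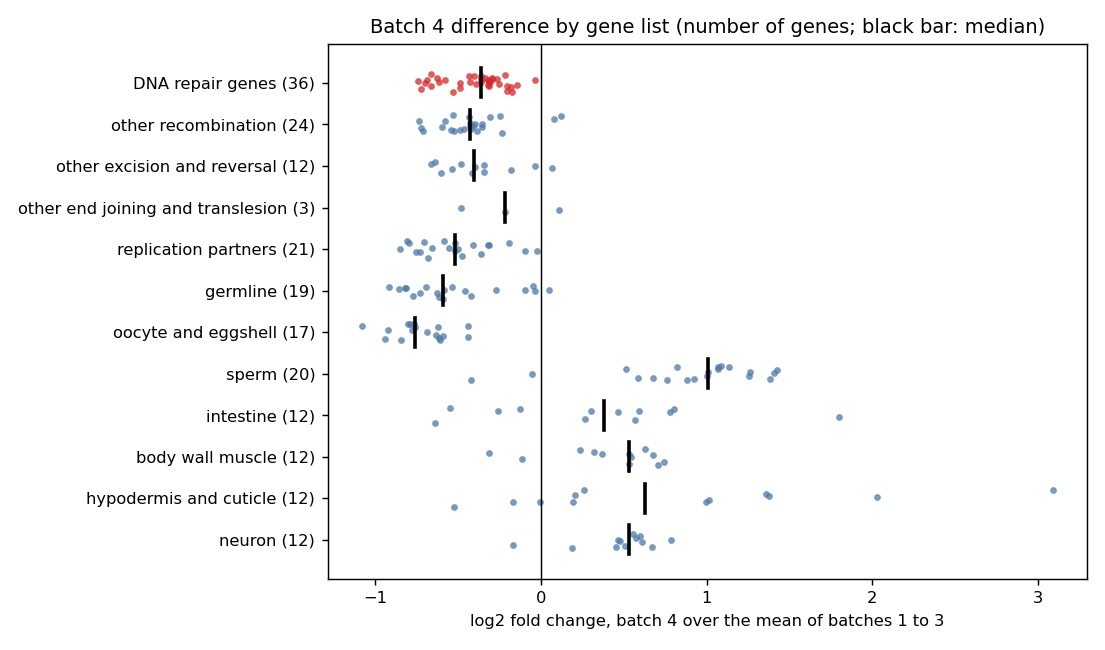
Log2 fold change of batch 4 over the mean of batches 1 to 3 for single genes (points) of the repair genes, of further repair and replication lists and of tissue marker lists, with the list median as a black bar and the number of genes in brackets. Medians are -0.36 for the repair genes, -0.59 for germline and -0.76 for oocyte and eggshell genes, while sperm, intestine, muscle, cuticle and neuron medians lie above 0.

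Further genes of the same machinery were counted by list. Of 60 further repair and replication genes tested, 0 passed with DEET, with or without the block, where 0.0839% of all genes passed with it, and their median blocked log2 fold change was 0.02. In batch 4, 52 of the 60 were lower and 0 higher, with a median of -0.45, where 29.8% of all genes tested were lower and 36.4% higher, with a median of 0.08. The lowest was the replicative helicase subunit gene mcm-4 at -0.85, followed by mcm-7 at -0.81 and the ribonucleotide reductase gene rnr-1 at -0.80. By list, 22 of 24 recombination genes, 9 of 12 excision and reversal genes, 2 of 3 end joining and translesion genes and 19 of 21 replication genes were lower. The sliding clamp gene pcn-1, named after its values were seen, went from 388 TPM in batches 1 to 3 to 240.5 TPM in batch 4.

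Batches 1 to 3 were compared in the same way. Against the mean of batches 2 and 3, batch 1 was higher or lower in 0 of 36 genes, where 12.9% of all genes passed, 1.78% lower and 11.1% higher, and DESeq2 also called 0. At an unadjusted p under 0.05 (edgeR) there were 5 of the 36 members and 4143 of the 15496 genes tested, a smaller share of the members than of all genes. The log2 fold changes ran from -0.18 for xpa-1 to 0.01 for rev-3, with a median of -0.06 against 0.00 for all genes tested. Below 0 were 35 of the 36 members and 7866 of the 15496 genes, a difference that was not tested. The smallest adjusted p was 0.086, for xpa-1. With both libraries of batch 4 left out, the edgeR test across batches 1 to 3 called 2 of 36 repair genes, rev-3 (adjusted p = 0.011) and mlh-1 (0.0396), where 19.5% of 15319 genes passed.

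Neighbouring and overlapping genes limit some values. Exons of 14 members overlap those of another protein-coding gene, on the opposite strand for 11 of them and on the same strand for 3, and no source used here states whether the counting used strand. On the same strand these are slx-1 with npp-6, exo-1 with myo-6, and ercc-1 with nubp-1. Mean levels of the overlapping gene were 57.5 TPM for npp-6, 0.6 TPM for myo-6 and 72.1 TPM for nubp-1. On the opposite strand, fcd-2 overlaps Y41E3.8 (23.4 TPM), parp-1 overlaps Y71F9AL.1 (29.8 TPM) and mus-81 overlaps C43E11.9 (79.6 TPM), so part of the reads of these genes could belong to either member of the overlap. Among the genes with the deepest decreases, brc-1, brd-1, xpc-1 and msh-6 share no exon with another protein-coding gene.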

How the data were processed

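Reads were pairs of 38 nucleotides from polyadenylated RNA (Kapa mRNA HyperPrep, Illumina NextSeq), per the labels' protocols. The submitters' processing notes name Salmon, DESeq2 and genome build WBcel235; no source used here gives versions, settings or strand use. The authors deposited whole-number counts per gene, not normalized, and TPM values scaled to a fixed total per library. Salmon estimates can divide reads between overlapping transcripts, and there were no molecular identifiers.

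Sequence names were matched to the Ensembl annotation of the same build: 46177 of 46244 identifiers matched 1 gene, 3 matched several and 64 none. The counts were tested with edgeR 4.0.16 in R 4.3.3 (TMM scaling, default expression filter, robust quasi-likelihood F test, two-sided, Benjamini-Hochberg adjustment over 15496 genes, threshold 0.05); each SE is the log2 fold change divided by the square root of F. Treatment was tested alone and, as an alternative, with the batch as a block; batches were tested with treatment in the model. Intervals come from limma 3.58.1 on log2 CPM with a prior count of 2, blocked. DESeq2 1.42.0 was run without independent filtering. The fits were also run on simulated counts with changes of known size, and the outcome is not given here. No limit on false calls was set there for the batch fits, so the simulation does not vouch for the batch results. Correlation of deviations from group means was 0.43, 0.71, 0.56 and 0.90 within pairs 1 to 4, so the labels' numbers pair the samples. The labels call the samples independent biological repeats without naming cultures. In the treatment test without the block, p-values measure the spread between these samples. With the batch in the model they rest on what is left within batches after the mean treatment change. They then do not measure the spread between batches.

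The members and lists were chosen with earlier results of these data known. Values in every library are given for up to 8 genes by adjusted p in each test, the highest-level gene and the gene of largest blocked treatment change of each pathway, and genes whose 4 ratios share a sign. Of 64 further repair genes listed, 60 were matched and tested. Tissue marker lists were used as counts and sums. Genes outside this rule were named after their values were seen.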

Additional observations from a re-analysis of the deposited data

Results flagged for a closer look

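In groups of 4 samples, a gene was singled out where the gap between the lowest or highest sample and its neighbour exceeded Dixon's 95% critical share of the whole range. Of 72 groups, 36 genes in 2 treatments, 23 met this, 15 in DMSO and 8 in DEET, and in all 23 the sample of batch 4 was the lowest. Chance gives about 1 in 20 for a single group, but the 36 genes were read in the same 8 libraries and are not independent, so the count is a description and restates the lower levels of batch 4. In the DMSO sample of batch 4 the recombination genes were rad-50 at 57.7 TPM, rad-51 at 58.9, rad-54.L at 23.2, brd-1 at 18.5, brc-2 at 36.7, xpf-1 at 28.2 and fcd-2 at 19.01 TPM. The mismatch genes were msh-6 at 45.5, mlh-1 at 26.1 and pms-2 at 37.3 TPM. The remaining ones were xpc-1 at 39.7, exo-3 at 60.3, parp-1 at 47.0, cku-70 at 28.2 and polh-1 at 30.2 TPM. In the DEET sample of batch 4 the genes were rad-50 at 59.0, rad-54.L at 24.9, xpf-1 at 33.4, rtel-1 at 33.3, msh-6 at 54.6, xpc-1 at 44.9, polq-1 at 26.1 and rev-1 at 20.2 TPM.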

How the results depend on the processing

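With DEET, 0 of 36 repair genes passed in the main fit and in 22 alternatives, which varied the tool, the scaling, the filter, the unit, the left-out library and the replicate block; the count over all genes was 0 in the main fit and 0 to 20 in these. With the replicate block the count of repair genes was 0, and 13 genes of the whole table passed. Fits without the block take the batch differences as spread, so they could detect less. For fcd-2 the edgeR SE was 0.21 without the block and 0.04 with it. A count of 0 in the fits without the block therefore says less. Of 286 alternative values for the 13 genes named by rule, 49 changed sign and 0 passed; the signs of these small changes are not a result. Leaving out single libraries of batch 4 shifted the unblocked median of the repair genes to 0.10 without the DEET library and -0.07 without the DMSO library, against 0.02. In batch 4 against the others, 35 genes were lower in 15 of 16 alternatives and 29 with library totals, where cku-80 was at -0.09 (adjusted p = 0.145). Across the 4 batches the count was 29 to 36 in 16 alternatives and 2 without both libraries of batch 4; leaving out libraries gave 2 to 36. Between batch 1 and batches 2 and 3 it was 0 in 16 alternatives and 1 without the DMSO library of batch 2, where 13% of 15782 genes passed. That gene was xpa-1 (log2 fold change -0.24, edgeR adjusted p = 0.0241). Leaving out libraries thus gave 0 to 1, and the cause was not tested. Over all genes that contrast called 626 without DEET of batch 1, 721 without DMSO of batch 1 and 1159 with DESeq2, against 1998. For batch 4 against the others, the count over all genes in either direction was 10255 in the main fit, 8507 with DESeq2 and 10433 with library totals. Across the 4 batches it was 10053, 8185 and 10003. Library totals, the fits without both libraries of batch 4 that lie outside the block and the limma fit on log2 CPM were chosen after seeing the data.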
